A study of Homo sapiens with 18 samples.

Results

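The data describe how 1 human cell line labelled ATG7KO responded to starvation, given as 6 h of Earle's balanced salt solution (EBSS) in place of medium. They comprise 6 of the 18 RNA-seq libraries of the series, chosen by their titles alone: 3 of starved ATG7KO cells and 3 of ATG7KO cells in full medium. The cells are HAP1, a near-haploid line derived from a chronic myeloid leukaemia line. Full medium was Iscove's modified Dulbecco's medium with 10% fetal calf serum, while EBSS holds glucose and salts but neither amino acids nor serum. Polyadenylated RNA was sequenced as 75 bp single-end reads, and the labels state that the replicates were biologically independent. The parental line (WT) and a line labelled RB1CC1KO, each with 3 libraries in full medium and 3 after 6 h of EBSS, served to test where the response of ATG7KO differed. Each genotype is 1 line, and the edited position in ATG7 is not given in the sources used here, so an effect of the knockout and any other difference between the lines cannot be told apart. In such bulk RNA, fewer cells with a transcript and less of it per cell cannot be told apart either.

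Loss of amino acids silences the kinase complex mTORC1 at the lysosome and activates the kinase GCN2, whose substrate eIF2 then favours translation of the transcription factor ATF4. With mTORC1 silent, the factors TFEB and TFE3 enter the nucleus and the ULK1 complex starts autophagy, in which ATG7, an E1-like enzyme, activates ATG12 and the ATG8 proteins so that they can be joined to ATG5 and to membrane lipid. Loss of serum removes the growth factor signal to AKT, which holds back FOXO factors, and immediate early genes such as EGR1 and FOS are switched on within minutes by ERK and stress kinases without new protein synthesis.

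The 6 libraries held between 4892072 and 17351455 reads in genes. Replicate 3 after EBSS was the shallow one, with 17418 genes detected against 20036 to 20938 in the other 5. Mitochondrial reads made up 3.24 to 3.59% of a fed library and 1.52 to 2.14% of a starved one. Left out, that library moved the calls given below to 4749 higher and 4451 lower.

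ATG7 RNA was present in both media. It stood at 4.51, 3.68 and 3.87 TMM-scaled CPM, read counts set relative to library size, in the 3 full medium libraries and at 11, 10.2 and 9.97 CPM after EBSS, without overlap. The log2 fold change was 1.38 ± 0.13 (standard error; adjusted p = 5.37e-11, edgeR's quasi-likelihood test, as for every adjusted p below). WT held 15.6 ± 1.3 CPM (SD, n = 3) before and 16.1 ± 1.68 CPM after EBSS, and RB1CC1KO held 16.2 ± 0.433 and 17.2 ± 0.640 CPM. The response of ATG7KO was larger than that of WT by 1.33 ± 0.17 log2 units (adjusted p = 6.07e-06) and than that of RB1CC1KO by 1.29 ± 0.17 (adjusted p = 7.63e-06). ATG7KO thus started below the other lines and moved towards them in EBSS, and whether this RNA can make protein is not visible in counts.

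4 genes mark the response: EGR1, DDIT4 and STC2 at the upper end and SLC40A1 at the lower. EGR1, a zinc finger factor of the first transcriptional wave, stood at 11.3, 13 and 10.7 CPM in full medium and at 1614, 1329 and 1383 CPM after EBSS, a log2 fold change of 6.95 ± 0.11. DDIT4, also called REDD1, which acts through the TSC complex to restrain mTORC1, went from 7.51, 8.54 and 8.55 to 335, 358 and 377 CPM (5.44 ± 0.10). STC2, a secreted glycoprotein induced by cell stress, went from 52.8, 59.4 and 57.8 to 785, 732 and 755 CPM (3.74 ± 0.07). In each of these 3 genes the lowest starved library lay far above the highest fed one. SLC40A1, the iron exporter ferroportin, stood at 4.12, 2.65 and 3.93 CPM in full medium and at 0.129, 0.272 and 0.212 CPM after EBSS (-4.09 ± 0.42), so that little of its RNA remained in any starved library. The largest adjusted p of the 4 was that of SLC40A1 (adjusted p = 2.3e-10).

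**Figure D1:**
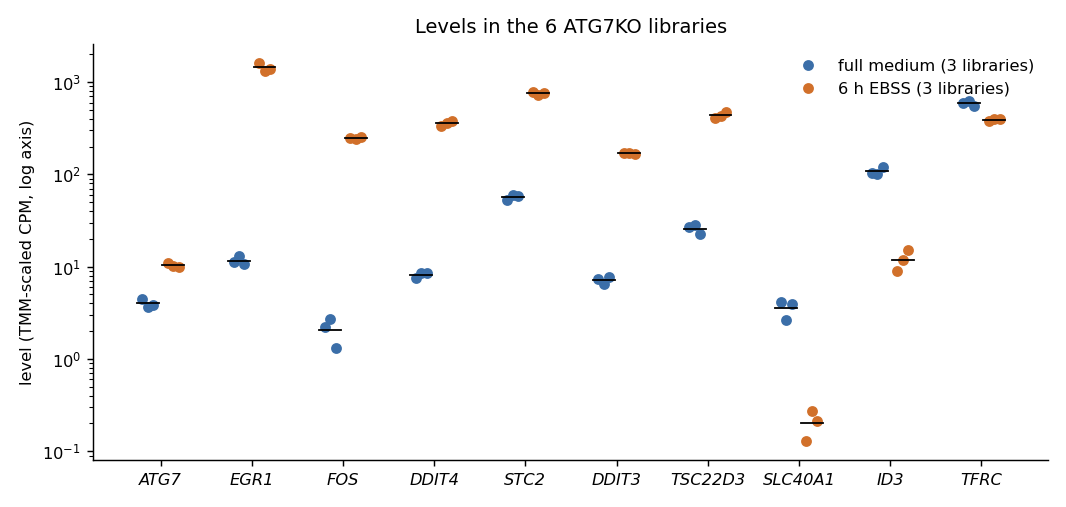
Levels of 10 genes in the 6 ATG7KO libraries, in TMM-scaled CPM on a log axis. Blue points are the 3 full medium libraries, orange points the 3 libraries after 6 h of EBSS, and short lines the means. EGR1 went from 10.7 to 13 CPM up to 1329 to 1614 CPM, while TFRC moved by -0.60 log2 units.

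The response reached most genes. Of 15179 genes tested, 4902 (32.3%) were called higher and 4652 (30.6%) lower at an adjusted p below 0.05, 62.9% in all. Of these, 1445 (9.52%) were at least 2-fold higher and 1466 (9.66%) at least 2-fold lower. The median over all genes was -0.01 log2 units, with -1.53 at the 5th percentile and 1.55 at the 95th. Upper-quartile scaling in place of TMM moved that median to -0.17 and the split to 3719 higher and 6271 lower, 37.2% higher among those called against 51.3% with TMM. Small changes therefore depend on the scaling, and list counts below are read against these shares of all genes.

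The promoters of 5 genes from the groups described next are shown because they hold the letters through which such groups are known to be read: CArG boxes bound by serum response factor, the C/EBP-ATF response element (CARE, TGATGNAA) bound by ATF4 with C/EBP factors, and the CLEAR element (TCACGTGA) bound by TFEB and TFE3. Each line gives the 250 bases before the first listed RefSeq start of the gene, 5′ to 3′ on the gene's strand, in GRCh38.p14. Capitals mark matches on either strand to these elements or to the E-box CACGTG, which lies inside every CLEAR match.
EGR1 (chr5:138465229-138465478, plus strand): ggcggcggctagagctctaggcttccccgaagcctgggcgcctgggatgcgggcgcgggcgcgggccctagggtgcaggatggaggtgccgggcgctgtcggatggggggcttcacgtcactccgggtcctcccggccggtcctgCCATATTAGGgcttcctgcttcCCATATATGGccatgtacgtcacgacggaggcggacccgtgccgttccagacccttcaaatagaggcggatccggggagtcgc
ASNS (chr7:97872409-97872658, minus strand): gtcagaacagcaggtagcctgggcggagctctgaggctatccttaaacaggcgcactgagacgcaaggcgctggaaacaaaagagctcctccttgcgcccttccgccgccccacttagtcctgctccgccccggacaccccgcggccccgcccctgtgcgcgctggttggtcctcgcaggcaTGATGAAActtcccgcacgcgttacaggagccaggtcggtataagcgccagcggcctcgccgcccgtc
CHAC1 (chr15:40953221-40953470, plus strand): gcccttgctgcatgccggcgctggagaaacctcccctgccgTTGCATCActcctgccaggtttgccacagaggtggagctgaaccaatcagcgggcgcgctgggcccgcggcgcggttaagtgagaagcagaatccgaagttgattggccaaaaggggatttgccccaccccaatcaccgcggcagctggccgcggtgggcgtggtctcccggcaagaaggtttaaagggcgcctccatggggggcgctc
HERPUD1 (chr16:56931892-56932141, plus strand): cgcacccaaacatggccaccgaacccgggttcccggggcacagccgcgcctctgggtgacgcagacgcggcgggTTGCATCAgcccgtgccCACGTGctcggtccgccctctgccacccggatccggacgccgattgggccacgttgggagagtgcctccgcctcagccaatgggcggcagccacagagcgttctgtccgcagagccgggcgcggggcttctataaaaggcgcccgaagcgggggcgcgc
MCOLN1 (chr19:7522374-7522623, plus strand): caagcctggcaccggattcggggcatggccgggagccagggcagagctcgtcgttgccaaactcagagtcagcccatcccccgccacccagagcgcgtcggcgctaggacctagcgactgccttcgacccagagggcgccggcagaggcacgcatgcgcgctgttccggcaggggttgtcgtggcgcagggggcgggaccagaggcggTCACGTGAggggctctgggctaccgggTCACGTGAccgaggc
EGR1 had CArG boxes that begin 105 and 83 bases before the start. ASNS had a CARE 68 bases before it, CHAC1 1 at 209 and HERPUD1 1 at 176 with an E-box at 159, while MCOLN1 had CLEAR matches at 42 and 15. A match is a description of the letters and not of a bound site.

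Most immediate early genes and feedback inhibitors of ERK signalling rose. Of 39 members, 29 rose and 8 fell, with a median of 1.63. Among the factors of the first wave, FOS, the partner of JUN in the AP-1 dimer, stood at 2.23, 2.7 and 1.31 CPM in full medium and at 249.6, 242 and 256 CPM after EBSS (6.88 ± 0.15). JUN went from 10.2, 9.03 and 11.4 to 218, 262 and 258 CPM (4.59 ± 0.12), and FOSB rose by 4.2 ± 0.34. All 3 AP-1 genes were thus far higher in every starved library. EGR2 rose by 6.4 ± 0.22, and by 7.73 without full medium replicate 2, while EGR3 rose by 3.76 ± 0.23, ATF3 by 4.54 ± 0.09, IER2 by 3.0 ± 0.09, KLF6 by 2.94 ± 0.06, JUNB by 2.12 ± 0.11 and IER3 by 1.3 ± 0.17. MYC, the growth factor-responsive driver of biosynthesis, changed by -0.23 ± 0.07, and without full medium replicate 3 that change was -0.15 with an adjusted p of 0.0511. The others that fell were PHLDA1, FOSL1, DUSP2, DUSP5, SRF, BTG2 and NR4A2, between -1.71 and -0.34.

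Several feedback inhibitors of these pathways rose as well. NAB2, a corepressor of the EGR factors, went from 25.4, 23.5 and 23 to 64.4, 54.9 and 61.3 CPM (1.33 ± 0.10), and DUSP1, a phosphatase of the stress kinases, rose by 1.82 ± 0.10. SPRY4, an inhibitor of receptor signalling to ERK, stood at 1.34, 1.57 and 1.68 CPM in full medium and at 4.91, 4.55 and 5.09 CPM after EBSS (1.65 ± 0.22), and SPRY2 rose by 1.19 ± 0.13. DUSP6, the phosphatase of cytoplasmic ERK, stood at 1.78, 2.32 and 3.12 CPM before and 2.58, 2.45 and 2.97 CPM after EBSS, which did not pass (0.12 ± 0.26, adjusted p = 0.712). The ranges of DUSP6 in the media overlap, whereas those of SPRY4 and NAB2 do not. KLF10 rose by 2.15 ± 0.09.

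Genes of the ATF4 amino acid response had the highest median of the 33 lists. Of 45 tested, 43 rose and 1 fell, with a median of 2.22. Of the factors, ATF4 itself went from 299, 301 and 281 to 838, 857 and 856 CPM (1.54 ± 0.06), with no overlap. DDIT3, also called CHOP, stood at 7.29, 6.49 and 7.67 CPM in full medium and at 169, 169 and 168 CPM after EBSS (4.56 ± 0.08), and CEBPB rose by 4.05 ± 0.29. TRIB3, a pseudokinase that dampens ATF4, rose by 3.94 ± 0.08, and PPP1R15A, the eIF2 phosphatase subunit that ends the response, by 3.4 ± 0.08. Both opposing arms of the pathway thus rose together. Of the effectors, ASNS, the asparagine synthetase, went from 77.2, 84.1 and 73.5 to 740.4, 707 and 726 CPM (3.21 ± 0.07). CHAC1, which degrades glutathione, went from 5.68, 7.41 and 7.11 to 88.8, 87.8 and 97 CPM (3.75 ± 0.12). SESN2, a leucine sensor that restrains mTORC1, rose by 3.59 ± 0.08, and HERPUD1, of the degradation machinery of the endoplasmic reticulum, by 3.58 ± 0.06. VLDLR, a lipoprotein receptor, rose by 2.35 ± 0.08. The member that fell was ALDH18A1, the first enzyme of proline synthesis, at -0.37.

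Of 20 secreted stress factors listed, 12 were tested, of which 8 rose and the other 4 did not pass. INHBE, an inhibin chain, went from 0.278, 0.487 and 0.437 to 17.4, 17.2 and 21.6 CPM (5.49 ± 0.23). GDF15, a stress hormone that reduces appetite, went from 1.56, 2.22 and 3.56 to 25.2, 32.3 and 28.6 CPM (3.57 ± 0.20). VEGFA, the vascular growth factor, rose by 3.01 ± 0.07 and HBEGF, a ligand of the epidermal growth factor receptor, by 1.25 ± 0.16. LTA, lymphotoxin alpha, had 0 reads in the 3 full medium libraries and 95 after EBSS, at least 47.6-fold higher against a floor of 3 reads over the group, which covers counting error only.

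Amino acid transporters rose in 17 of 24 cases and fell in 3, with a median of 0.75. SLC38A2, the sodium-coupled transporter of small neutral amino acids, went from 119, 126 and 113 to 1495, 1333 and 1379 CPM (3.55 ± 0.08). SLC7A11, the cystine-glutamate exchanger, went from 90.1, 90.9 and 83.2 to 1015, 868 and 955 CPM (3.42 ± 0.08). SLC6A9, a glycine transporter, rose by 3.25 ± 0.09, SLC1A4 by 2.54 ± 0.07 and SLC1A5, the glutamine carrier, by 1.6 ± 0.07. SLC3A2, the heavy chain that SLC7A5 and SLC7A11 share, rose by 2.33 ± 0.07, SLC7A5, the leucine carrier, by 1.57 ± 0.07, SLC7A1, the arginine carrier, by 1.28 ± 0.06 and SLC38A1 by 1.52 ± 0.06. The 3 that fell were SLC1A1, SLC7A6 and SLC43A2, between -0.56 and -0.27.

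In serine synthesis and one-carbon metabolism 9 of 14 genes rose and 2 fell. All 3 enzymes that make serine rose, PHGDH by 1.59 ± 0.06, PSAT1 by 2.27 ± 0.06 and PSPH by 1.36 ± 0.07, and so did their mitochondrial successors SHMT2 (1.17 ± 0.06) and MTHFD2 (1.91 ± 0.06). MTHFD2L was among those that fell. Of the enzymes that charge tRNA in the cytosol, 13 of 20 rose and 2 fell, with a median of 0.61. CARS1, for cysteine, rose by 2.22 ± 0.06, TARS1, for threonine, by 1.71 ± 0.06, GARS1, for glycine, by 1.69 ± 0.06, MARS1, for methionine, by 1.28 ± 0.06 and QARS1, for glutamine, by 0.38 ± 0.06. Their mitochondrial counterparts went the other way, with 12 of 17 lower, 3 higher and a median of -0.30. PARS2, for proline in mitochondria, stood at 13, 12.9 and 11.5 CPM in full medium and at 1.36, 2.17 and 1.06 CPM after EBSS (-2.91 ± 0.18), and MARS2 changed by -1.79 ± 0.10, AARS2 by -0.89 ± 0.09 and EARS2 by -0.57 ± 0.07. Without full medium replicate 1, full medium replicate 3 or EBSS replicate 2, 1 mitochondrial enzyme rose, and 4 cytosolic ones fell without EBSS replicate 2.

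Genes that set mTORC1 activity moved in both directions. Of 42 tested, 18 rose and 13 fell, with a median of 0.07. The folliculin module, which lets the RagC and RagD GTPases pass the amino acid signal to TFEB and TFE3, rose together, apart from RRAGD, which did not pass. FLCN went from 14.2, 15.4 and 15.2 to 129, 139.6 and 156 CPM (3.23 ± 0.08), its partners FNIP1 and FNIP2 rose by 1.78 ± 0.07 and 1.48 ± 0.07, and RRAGC rose by 2.1 ± 0.07. TFEB rose by 1.27 ± 0.17 and TFE3 by 0.89 ± 0.07. Of the sestrins, SESN3 rose by 0.62 ± 0.08 beside SESN2, whereas SESN1 changed by -0.77 ± 0.10, so the family did not move as one. Others that fell included KICS2, DDIT4L, LAMTOR2 and RPTOR, between -1.6 and -0.74.

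Autophagy genes rose in this line, in which the conjugation step is the one targeted, as they did in both other lines. Of 34 tested genes of autophagosome formation, a list without ATG7, 22 rose and 2 fell, with a median of 0.48. With upper-quartile scaling 19 rose and 8 fell around a median of 0.32, and 1 fell without full medium replicate 1 or 2. In the initiating complex ULK1, its kinase, went from 38.6, 41.1 and 47 to 108, 105 and 107 CPM (1.34 ± 0.09), the scaffold RB1CC1 rose by 1.04 ± 0.07 and ATG13 by 0.74 ± 0.06. UVRAG and ATG14, alternative subunits of the lipid kinase complex, rose by 1.77 ± 0.08 and 0.56 ± 0.09. ZFYVE1, also called DFCP1, and WIPI1 and WIPI2, which bind the lipid that this kinase makes, rose by 1.96 ± 0.09, 0.68 ± 0.20 and 0.78 ± 0.06. Each stage before conjugation thus had members that rose. The rise was shared: of the 34 genes, 25 rose and 3 fell in WT, and 23 rose and 3 fell in RB1CC1KO. None of the 34 differed from WT by a called amount.

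Around ATG7 in the conjugation step the values were smaller and mixed. ATG3, the E2-like enzyme to which ATG7 passes the ATG8 proteins, rose by 0.47 ± 0.07, and ATG12, which ATG7 activates, rose by 0.88 ± 0.08. ATG5 and ATG16L1, with which ATG12 forms the E3-like complex, stood at 0.17 ± 0.10 (adjusted p = 0.130) and 0.17 ± 0.08 (adjusted p = 0.0627) and did not pass. Without the shallow EBSS replicate 3 both passed, ATG5 at 0.25 (adjusted p = 0.0433) and ATG16L1 at 0.22 (adjusted p = 0.0288), and ATG16L1 also passed without full medium replicate 1 at 0.21 (adjusted p = 0.0469). Of the ATG8 proteins, MAP1LC3B went from 90.8, 92.7 and 86.7 to 212, 204 and 203 CPM (1.2 ± 0.06), a gene with a near-identical copy between which reads may be split. GABARAP, with 104 reads in full medium and 256 after EBSS, rose by 1.91 ± 0.19 and GABARAPL1 by 0.49 ± 0.08. Of the receptors that bring cargo to ATG8 proteins, 14 of 20 rose and the other 6 did not pass. SQSTM1, also called p62, went from 162, 149 and 165 to 297, 312 and 321 CPM (0.97 ± 0.06), CALCOCO2 rose by 1.31 ± 0.07, the large adaptor WDFY3 by 1.16 ± 0.07, OPTN by 0.84 ± 0.08, TAX1BP1 by 0.83 ± 0.07 and NBR1 by 0.59 ± 0.06.

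Of 54 lysosomal genes 26 rose and 10 fell, with a median of 0.16 that turned to -0.0068 with upper-quartile scaling, where 19 rose and 20 fell, and was 0.074 without EBSS replicate 2 and 0.086 without EBSS replicate 1. CTSK, a cathepsin best known from bone-resorbing cells, went from 0.557, 0.703 and 0.624 to 7.24, 7.13 and 9.34 CPM (3.59 ± 0.29). NEU1, a sialidase, rose by 1.08 ± 0.07, the proton pump subunits ATP6V1B2 and ATP6V1H by 0.91 ± 0.06 and 0.71 ± 0.07, the cholesterol exporter NPC1 by 0.73 ± 0.07 and the calcium channel MCOLN1 by 0.51 ± 0.11. LAMP1, the abundant membrane glycoprotein, rose by 0.18 ± 0.06, but it did not pass without EBSS replicate 2 (0.11, adjusted p = 0.174) or with upper-quartile scaling. The members that fell included the hydrolases SGSH, CTSH and IDUA, between -0.70 and -0.54.

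Targets of FOXO factors rose in 16 of 27 cases and fell in 6, with a median of 0.60. TSC22D3, also called GILZ, went from 27, 28.3 and 22.4 to 412, 425 and 469 CPM (4.07 ± 0.08). IRS2, an adaptor of the insulin receptor, went from 12.7, 13.2 and 13.6 to 79.8, 82.4 and 98.2 CPM (2.7 ± 0.13), CCNG2 rose by 2.56 ± 0.07, the repressor BCL6 by 1.73 ± 0.09, FOXO3 itself by 1.56 ± 0.07, the mTORC2 subunit RICTOR by 1.35 ± 0.08 and the cell cycle inhibitor CDKN1B by 1.34 ± 0.06. Among the 4 tested members of the arrestin-like ARRDC family, 1 stood apart. ARRDC3, an adaptor for the removal of surface proteins, stood at 65.3, 69.8 and 65.8 CPM in full medium and at 3.81, 4.08 and 5.3 CPM after EBSS (-4.01 ± 0.12), whereas ARRDC2 changed by -0.53 ± 0.12.

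Of the cell cycle genes, 22 of 34 for G1/S rose and 8 fell (median 0.25, 0.13 without EBSS replicate 2), and 24 of 31 for G2/M rose and 3 fell (median 0.48). CDT1, which licenses replication origins, rose by 1.76 ± 0.11, the factors E2F1 and E2F2 by 0.85 ± 0.07 and 1.33 ± 0.07, and the mitotic kinases TTK, AURKA and PLK1 by 1.27 ± 0.07, 1.05 ± 0.06 and 0.61 ± 0.06. GINS4, a subunit of the replicative helicase, changed by -1.37 ± 0.08 and CCNB1, the mitotic cyclin, by -0.42 ± 0.06. CCND1, the cyclin that reads growth factor signals, went from 5.9, 7.08 and 7.49 to 1.68, 1.43 and 1.27 CPM (-2.17 ± 0.26), while CCND2 rose by 0.90 ± 0.09. CDKN1A, the inhibitor p21, changed by -0.77 ± 0.08. The falling G2/M genes were 1 without full medium replicate 1 and 5 without EBSS replicate 2. Among 12 CDK inhibitors and cyclins 9 rose and 2 fell. Of 24 replication-dependent histone genes listed, whose main transcripts have no poly(A) tail and enter such libraries only in part, 13 were tested. Of these 8 rose and the other 5 did not pass. Those that rose included H1-3 at 1.41 ± 0.34, H2AC6 at 1.2 ± 0.26 and H2BC21 at 0.93 ± 0.21. Without full medium replicate 1, full medium replicate 2 or EBSS replicate 2 the count was 4, 5 or 3.

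Of 15 genes of the BCL2 family, which decide on the release of cytochrome c from mitochondria, 8 rose and 5 fell. 3 of the death-promoting BH3-only genes were high in all starved libraries. BBC3, also called PUMA, went from 4.23, 5.51 and 4.74 to 40.8, 46 and 47.3 CPM (3.2 ± 0.20), PMAIP1, also called NOXA, from 24.7, 27.2 and 25.2 to 162, 167 and 157 CPM (2.66 ± 0.07) and HRK from 1.5, 0.432 and 0.562 to 11.3, 9.44 and 8.7 CPM (3.57 ± 0.22, and 4.33 without full medium replicate 1). BMF rose by 0.98 ± 0.10, and so did the survival gene MCL1, by 0.72 ± 0.06. The members that fell were BOK, BIK, BCL2L2, BCL2L1 and BID, between -1.84 and -0.30, and the count that fell was 3 without full medium replicate 2.

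Iron genes spread widely, with 6 of 21 higher, 9 lower and a median of 0.02 whose sign depended on the scaling. SLC40A1 lay at its lower end, and at its upper end lay HAMP, the hormone hepcidin, which binds ferroportin and has it degraded. HAMP stood at 0.278, 0.270 and 0 CPM in full medium and at 4.91, 4.75 and 5.3 CPM after EBSS (4.64 ± 0.38), a low level in both media. Of the import genes, TFRC, the transferrin receptor, went from 596, 620.0 and 552 to 377, 397 and 393 CPM (-0.60 ± 0.06), SLC11A2 changed by -0.67 ± 0.08 and SLC39A14 by 1.07 ± 0.06. IREB2, which binds iron-responsive elements in messages such as that of TFRC, rose by 0.53 ± 0.06. The ferritin chains FTH1 (0.02 ± 0.06, adjusted p = 0.722) and FTL (0.12 ± 0.06, adjusted p = 0.111) did not pass. FTH1 was however called lower with upper-quartile scaling, and FTL higher with limma voom and quality weights. HMOX1, haem oxygenase, went from 16, 12.5 and 14.3 to 8.08, 8.69 and 8.91 CPM (-0.75 ± 0.12). NRF2, the antioxidant factor that p62 can free from KEAP1, is encoded by NFE2L2, which rose by 1.3 ± 0.07, and its partner MAFG by 1.56 ± 0.07. Of the 27 genes listed for NRF2, however, 6 rose and 11 fell, with GCLM at -0.41 ± 0.09, and 7 fell without EBSS replicate 1.

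The unfolded protein response list had 13 of 25 members higher and 8 lower, or 10 and 12 with upper-quartile scaling, and the sensor and its chaperone moved in opposite directions. XBP1, the factor that the sensor IRE1 splices, went from 76.4, 74.2 and 71.5 to 405, 428 and 414 CPM (2.49 ± 0.06) and ERN1, which encodes IRE1, rose by 1.3 ± 0.10. HSPA5, the chaperone BiP and the usual marker of misfolded protein in the endoplasmic reticulum, changed by -0.22 ± 0.06. Of 19 cytosolic chaperone genes 9 rose and 6 fell, and with upper-quartile scaling the balance turned to 5 and 10. HSPA1A and HSPA1B, near-identical copies between which reads cannot be assigned with certainty, changed by -1.86 ± 0.11 and -1.62 ± 0.14, whereas the constitutive HSPA8 rose by 0.59 ± 0.06 and the factor HSF2 by 1.13 ± 0.09. Of 14 factors of nonsense-mediated decay, which removes messages with early stop codons, 10 rose and 2 fell, among them SMG9 at 1.28 ± 0.07, UPF2 at 1.02 ± 0.08, SMG5 at 0.88 ± 0.06 and SMG1 at 0.87 ± 0.08.

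Genes for making ribosomes were among those that fell. Of 47 ribosome biogenesis genes 25 fell and 9 rose, with a median of -0.22. RRS1 went from 47.7, 44.4 and 52.8 to 17.6, 17.3 and 16.3 CPM (-1.49 ± 0.09), UTP15 changed by -1.31 ± 0.10, NIP7 by -1.19 ± 0.07 and GRWD1 by -1.16 ± 0.08, and the RNA polymerase I subunits POLR1A and POLR1B by -0.48 ± 0.07 and -0.59 ± 0.07. RRN3, the factor that recruits this polymerase, rose by 0.25 ± 0.07, but not with upper-quartile scaling, and FBL, the methyltransferase of ribosomal RNA, did not pass (-0.07 ± 0.06, adjusted p = 0.350). The ribosomal protein genes themselves moved little: 15 of 76 rose, 4 fell and the median was 0.06, a sign that upper-quartile scaling turned. With that scaling 5 rose and 11 fell, and without EBSS replicate 2 only 8 rose. RPS9, RPS2 and RPLP0 stood at 0.47 ± 0.08, 0.39 ± 0.07 and 0.38 ± 0.06.

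In lipid synthesis 10 of 26 sterol genes were lower and 5 higher, with a median of -0.13. Over all tested genes 30.6% were lower and 32.3% higher. In WT 15 genes of this list were lower and 5 higher. MSMO1, a sterol oxidase, went from 47.2, 50.1 and 50.1 to 16.8, 17.3 and 12.1 CPM (-1.61 ± 0.11). INSIG1, which retains the SREBP factors in the endoplasmic reticulum, changed by -0.97 ± 0.11, HMGCS1 by -0.67 ± 0.07 and SQLE by -0.58 ± 0.07. The factors that drive these genes moved the other way, SREBF1 by 0.92 ± 0.11 and SREBF2 by 0.56 ± 0.06. Among 14 fatty acid genes 4 rose and 3 fell, with ELOVL6, an elongase, at -1.14 ± 0.07, SCD, a desaturase, at -0.20 ± 0.05 and FASN, the synthase, at 0.64 ± 0.10. Of 29 glycolysis and hypoxia genes 11 rose and 7 fell. SLC2A3, a glucose transporter, rose by 2.19 ± 0.14, whereas LDHA, lactate dehydrogenase, changed by -0.51 ± 0.06 and EGLN3, a prolyl hydroxylase, by -2.44 ± 0.12. The balance of both lists turned without EBSS replicate 2, to 2 higher and 4 lower in the fatty acid list and to 7 and 8 in the glycolysis list. With upper-quartile scaling it was 2 and 7 in the former and 7 and 13 in the latter.

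The respiratory chain fell in its mitochondrial part. Of 13 messages of the mitochondrial genome 7 fell, the other 6 did not pass and the median was -0.51. Their summed level was 17029 to 17354 CPM in full medium and 10284 to 16275 CPM after EBSS, with MT-ND5 at -0.82 ± 0.20 and MT-CO3 at -0.59 ± 0.14. Of 42 nuclear-encoded subunits 10 fell and 4 rose, around a median of -0.08. Single libraries moved these counts: of the mitochondrial messages 4 fell without full medium replicate 2, 3 without EBSS replicate 2, 4 without EBSS replicate 3 and 12 without EBSS replicate 1 (median -0.79), and of the nuclear-encoded subunits 17 fell and 1 rose without EBSS replicate 2. With upper-quartile scaling 11 and 28 fell.

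**Figure D2:**
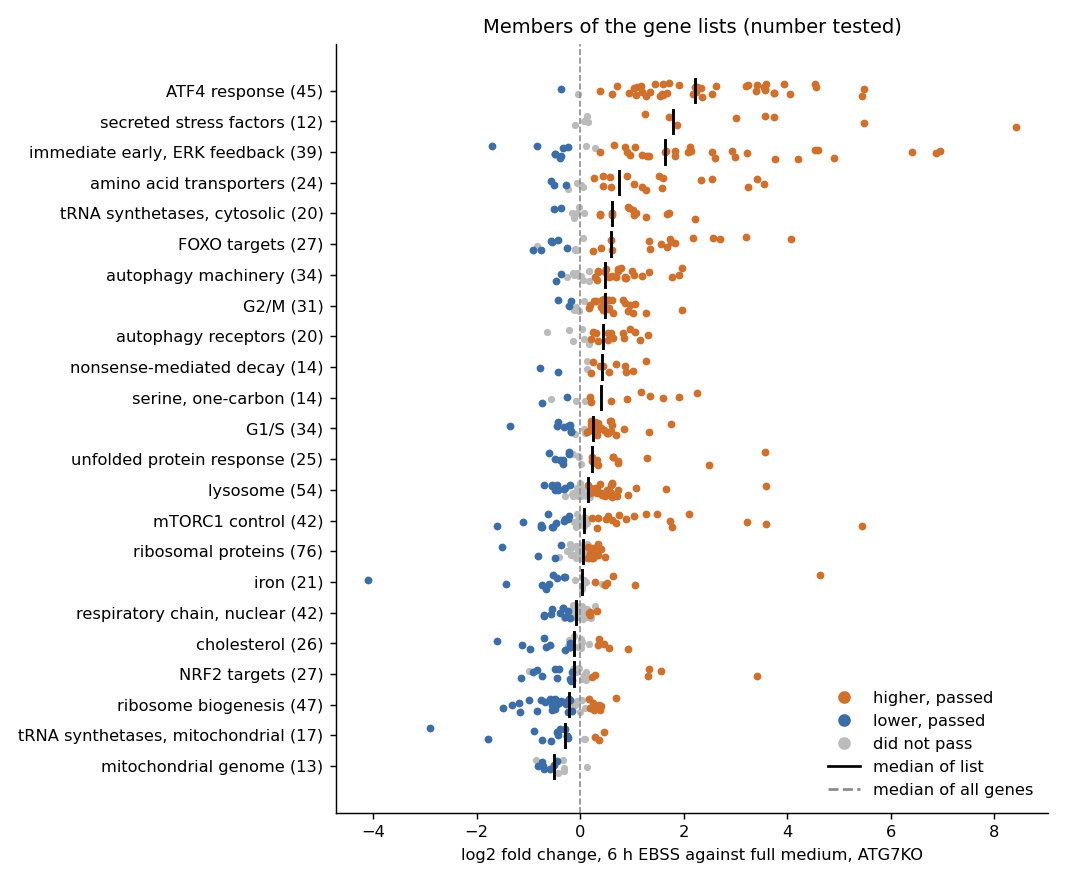
Log2 fold change (EBSS against full medium, ATG7KO) of each tested member of 23 gene lists, ordered by median. Orange and blue points passed the test as higher or lower, grey points did not, black bars are list medians and the dashed line is the median of all genes. Of the lists shown, that of ATF4 lies highest at 2.22 and the mitochondrial genome lowest at -0.51. The rightmost point among the secreted factors is LTA, whose fitted value rests on 0 reads in full medium.

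Outside these lists, genes with other roles were among the 14 that rose most. SPOCK2, a proteoglycan of the extracellular matrix, rose by 4.74 ± 0.27, and HHIP, which binds and blocks Hedgehog ligands, by 4.54 ± 0.10. CREBRF, a regulator of CREB3 factors, went from 4.95, 5.41 and 3.74 to 111, 90.7 and 108 CPM (4.44 ± 0.11). PYGM, a glycogen phosphorylase, rose by 4.39 ± 0.18, and WNK4, a kinase that regulates chloride transport, by 4.4 ± 0.29, and by 5.15 without full medium replicate 3.

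Of the 14 that fell most, 5 have 1 exon in every annotated transcript (TTC30A, TTC30B, PLPP6, WDR5B and NOG), against 1 of the 14 that rose most (JUN). TMEM177, a mitochondrial protein involved in assembly of cytochrome oxidase, stood at 20.4, 16.4 and 19 CPM in full medium and at 0.582, 1.02 and 0.849 CPM after EBSS (-4.52 ± 0.22). TTC30B and TTC30A, close paralogues that code for transport subunits of the cilium, changed by -4.09 ± 0.23 and -3.85 ± 0.25, and reads of these copies may have been shared. CCDC71 changed by -4.03 ± 0.17, WDR5B by -3.39 ± 0.22, the lipid phosphatase PLPP6 by -3.61 ± 0.19 and IFIT5, an interferon-induced gene, by -3.22 ± 0.15. ZNF786 and ZNF70, zinc finger genes, changed by -3.06 ± 0.19 and -3.02 ± 0.20, and SLC16A6 by -3.06 ± 0.21, and by -3.76 without EBSS replicate 2. The remaining 4 were ARRDC3, given above, and 3 genes tied to bone morphogenetic protein signalling. ID3 stood at 102, 100.4 and 120.2 CPM before and 8.98, 11.8 and 15.1 CPM after EBSS (-3.27 ± 0.15), and ID1 changed by -2.97 ± 0.11. Both code for inhibitors of differentiation factors that this signal induces. NOG, its secreted antagonist noggin, changed by -3.08 ± 0.16. All 14 were lower in each starved library than in any fed one, as the rule for naming them required and as 33.0% of all tested genes were, and 34.3% lay above in the same way.

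The shares of rising and falling genes differed with the number of exons. Protein-coding genes with 1 exon were called lower in 56.2% of 249 cases and higher in 16.1%, with a median of -0.68. With 2 to 5 exons the shares were 46.6% lower and 22.4% higher of 2974, and with 6 to 10 exons 33.4% and 29.3% of 3862. Of 5749 genes with over 10 exons 44.8% were higher and 20% lower, with a median of 0.16. The share of falling genes thus dropped, and that of rising genes grew, with each step in exon number. The share at least 2-fold lower dropped likewise, from 37.8% with 1 exon through 16.8% and 6.5% to 2.28%, whereas the share at least 2-fold higher did not grow, at 10.4%, 9.15%, 7.74% and 8.82%. Genes with ZNF symbols, whose zinc finger proteins mostly repress transcription, were lower in 51.3% of 411 cases and higher in 20.9%, and those on chromosome 19 in 58% and 12.2% of 188. Long intergenic and antisense RNAs were lower in 34.3% of 437 and 36.5% of 600 cases. Genes are not independent replicates, so these shares are a description, and no test was made.

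**Figure D3:**
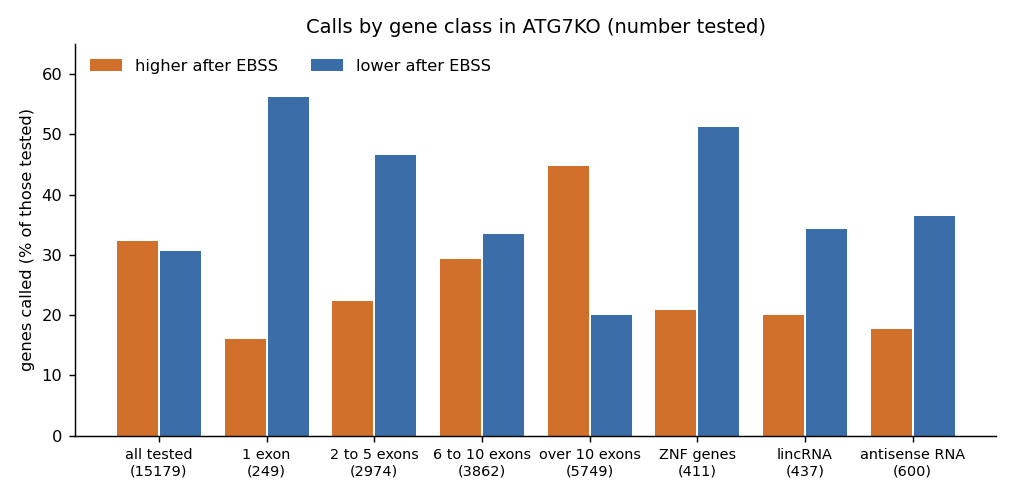
Share of genes called higher (orange) or lower (blue) after EBSS in ATG7KO, in percent of the genes tested in each class, with the number tested below each pair of bars. In 1-exon genes 56.2% were lower and 16.1% higher, and above 10 exons the order was the other way, with 20% and 44.8%.

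Promoter letters gave a further description, over 10438 tested protein-coding genes that matched a 300-base RefSeq promoter by symbol. CARE occurred in 167 of these promoters (1.6%), CLEAR in 200 (1.92%), the E-box in 1053 (10.1%) and the CArG box in 114 (1.09%). Genes with a CLEAR match were called higher in 49% of cases, against 34.5% of those without, and genes with a CARE match in 47.9% against 34.5%. For the E-box, the CLEAR matches included, the shares were 37.8% and 34.4%, and for the CArG box 37.7% and 34.7%. They were 41.7% and 34.6% for the FOXO letters GTAAACA, in 230 promoters, and 39.8% and 34.6% for the cAMP response element TGACGTCA, in 344. Of 37 promoters of the ATF4 list 9 (24.3%) held a CARE, and of 35 promoters of the lysosomal list 8 (22.9%) held a CLEAR match. Of 29 promoters of the immediate early list 2 (6.9%) held a CArG box, those of EGR1 and of SRF, which fell. In most members of the 3 lists these letters were therefore not in this window.

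Of the lineage markers, 7 of 20 haematopoietic genes were tested, of which 6 fell and the other, GATA2, did not pass. HAP1 cells grow attached and have lost much of the blood cell programme. KIT, a growth factor receptor, went from 2.23, 1.84 and 2.0 to 0.646, 0.475 and 0.424 CPM (-1.88 ± 0.31), TAL1 from 9.41, 10.9 and 9.48 to 1.49, 1.43 and 1.27 CPM (-2.79 ± 0.17) and RUNX1 changed by -0.51 ± 0.15. Of 16 mesenchymal genes 11 were tested, of which 5 rose and 3 fell, with a median of -0.13 and a lowest value of -2.42. Those that rose included VIM at 0.65 ± 0.06, FN1 at 1.01 ± 0.07, ACTA2 at 0.95 ± 0.09 and TAGLN at 1.43 ± 0.18. Against these stand the 3 that fell, so the mesenchymal list did not move as one. The summed level of the mesenchymal list was 1136 to 1185 CPM in full medium and 1651 to 1711 CPM after EBSS, and that of the haematopoietic list 151 to 161 and 137 to 138 CPM. Of 12 epithelial genes 5 were tested and 1 was called, CLDN4, and EPCAM had 8 reads in full medium and 3 after EBSS. The part of any other cell type in the response was not tested.

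Where ATG7KO responded otherwise than WT was tested as the difference of the 2 responses. It was called in 160 of 15179 genes (1.05%), 56 (0.369%) with a larger or less negative value in ATG7KO and 104 (0.685%) with a smaller or more negative one. This count moved when any 1 library was left out, which also leaves fewer replicates. It was 71 without ATG7KO EBSS replicate 2, and 92 without ATG7KO full medium replicate 1 or 2. Without WT EBSS replicate 1, WT EBSS replicate 2, WT full medium replicate 3 or WT full medium replicate 1 it was 73, 94, 101 or 102. It was 274 and 275 without ATG7KO EBSS replicate 1 and WT EBSS replicate 3. With all libraries kept it was 281 without a low-count filter, 293 with a replicate block and 637 with limma voom and quality weights. The excess of lower values was not stable either, with 143 higher and 132 lower without WT EBSS replicate 3, 350 and 287 with limma voom and quality weights, 141 and 152 with a replicate block, and 134 and 147 without a filter on low counts. The markers DDIT4 (-0.10 ± 0.14), STC2 (0.24 ± 0.09) and SLC40A1 (-0.76 ± 0.70) did not differ by a called amount, whereas EGR1 did. It rose by 7.89 ± 0.11 in WT, and the difference, ATG7KO minus WT here and below, was -0.94 ± 0.15 (adjusted p = 7.54e-04). Of 39 members of the immediate early and feedback list 12 were called lower and 1, JUN, higher, and the lists' members were chosen with earlier results of these libraries known.

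**Figure D4:**
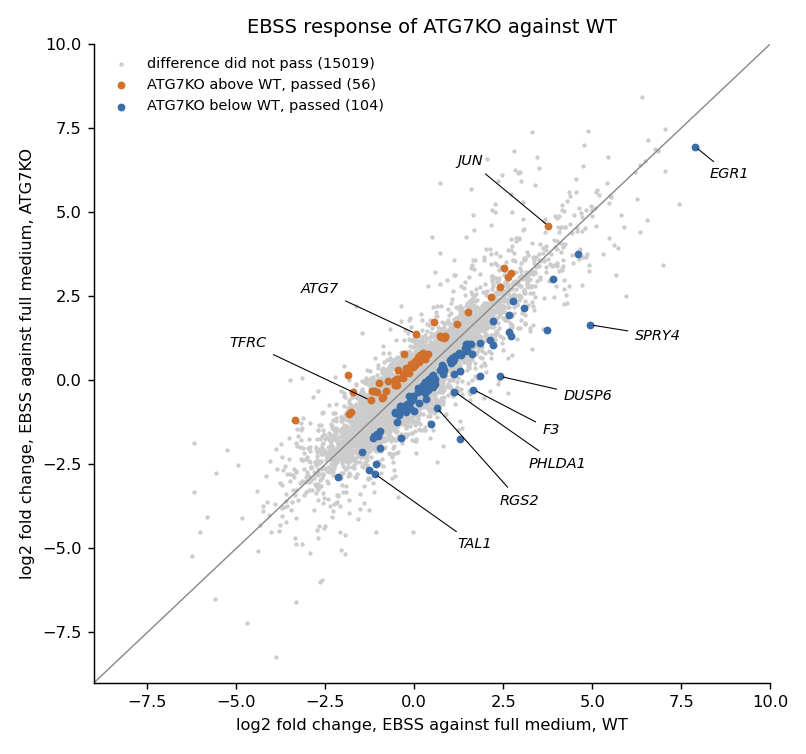
Log2 fold change in EBSS of each of 15179 genes in WT (x axis) and ATG7KO (y axis), with the line of equal change. Blue points are the 104 genes whose response was called lower in ATG7KO, orange the 56 called higher, and grey the others. SPRY4 and DUSP6 lie well below the line.

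The genes called lower included a set of ERK feedback inhibitors and effectors, and in several both the fed and the starved ATG7KO libraries stood apart from WT. SPRY4 stood at 0.365, 0.198 and 0.158 CPM in WT in full medium, against 1.34, 1.57 and 1.69 CPM in ATG7KO, and at 8.09, 6.88 and 7.43 and 4.91, 4.55 and 5.09 CPM after EBSS. Its response differed by -3.28 ± 0.41 (adjusted p = 4.36e-06), and by -3.64 without WT full medium replicate 1. The size of this difference rests in part on the fed WT values, which lie near the floor. DUSP6 stood at 1.1, 1.24 and 1.02 CPM in WT before and 5.96, 6.57 and 5.51 CPM after EBSS, so that its response differed by -2.28 ± 0.37 (adjusted p = 4.46e-04) from the flat values given above. In both genes the fed ATG7KO libraries lay above, and the starved ones below, all those of WT. PHLDA1, an apoptosis regulator induced by growth factors, rose by 1.13 ± 0.10 in WT and went from 28, 25.4 and 28.4 to 23.7, 19.3 and 21.6 CPM in ATG7KO, a difference of -1.47 ± 0.15 (adjusted p = 9.04e-08). F3, the tissue factor that starts coagulation, rose by 1.66 ± 0.11 in WT and went from 5.95, 6.76 and 6.8 to 5.69, 5.23 and 4.88 CPM in ATG7KO, which did not pass (-0.28 ± 0.14, adjusted p = 0.0857), a difference of -1.94 ± 0.18 (adjusted p = 9.24e-09). RGS2, an inhibitor of G protein signalling, changed by 0.62 ± 0.12 in WT and by -0.81 in ATG7KO (difference -1.44 ± 0.17). PHLDA1 and RGS2 thus rose in WT and fell in ATG7KO, and their fed ATG7KO libraries lay above and their starved ones below all those of WT, as for SPRY4 and DUSP6. For F3 the ATG7KO libraries lay below WT in both media, fed cells by less.

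In others both lines rose and WT rose more. NAB2 differed by -1.39 ± 0.15, SPRY2 by -0.92 ± 0.17, KLF10 by -0.95 ± 0.12, the survival gene MCL1 by -0.41 ± 0.08, all at an adjusted p of at most 0.00446. TNFRSF12A, the receptor of the cytokine TWEAK, rose by 1.84 ± 0.19 in WT and stood at 0.14 in ATG7KO, where it did not pass (difference -1.7 ± 0.30). TAL1 fell in both lines and further in ATG7KO (difference -1.68 ± 0.20). PTGS2, the inducible cyclooxygenase, differed by -2.22 ± 0.45, but not without ATG7KO full medium replicate 2 (-2.09, adjusted p = 0.0584), and gave -2.83 without ATG7KO EBSS replicate 1. CHAC1 differed by -0.84 ± 0.18, and the call was lost without WT full medium replicate 2 (-0.70), ATG7KO full medium replicate 2 (-0.76) or ATG7KO full medium replicate 3 (-0.80), at adjusted p from 0.0539 to 0.078.

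Besides ATG7, genes with a larger or less negative response in ATG7KO included STX18, a SNARE protein of retrograde transport to the endoplasmic reticulum. It changed by -1.0 in WT and stood at -0.09 in ATG7KO, a difference of 0.92 ± 0.10 (adjusted p = 7.52e-07). WT held 103, 106 and 110 CPM of STX18 in fed and 54.8, 53.6 and 51 CPM in starved libraries. The ATG7KO libraries lay below WT in both media, at 31.1, 37.1 and 34.4 CPM fed and 33.3, 32 and 30.3 CPM starved. TFRC stood at 440.5, 477 and 507 CPM in fed and 209.9, 199.5 and 198 CPM in starved WT libraries, a change of -1.23 ± 0.06, so that its response was less negative in ATG7KO by 0.63 ± 0.09 (adjusted p = 2.34e-05). JUN rose more in ATG7KO by 0.82 ± 0.17, and the call was lost without ATG7KO full medium replicate 2 (0.74, adjusted p = 0.0575). ADORA1, GPC6, PLXNB3, FRMD4B, RPS6KL1 and DAB2 completed the 8 with the largest positive difference, but their calls were lost in 2 to 10 of the 12 fits that each left out 1 library.

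**Figure D5:**
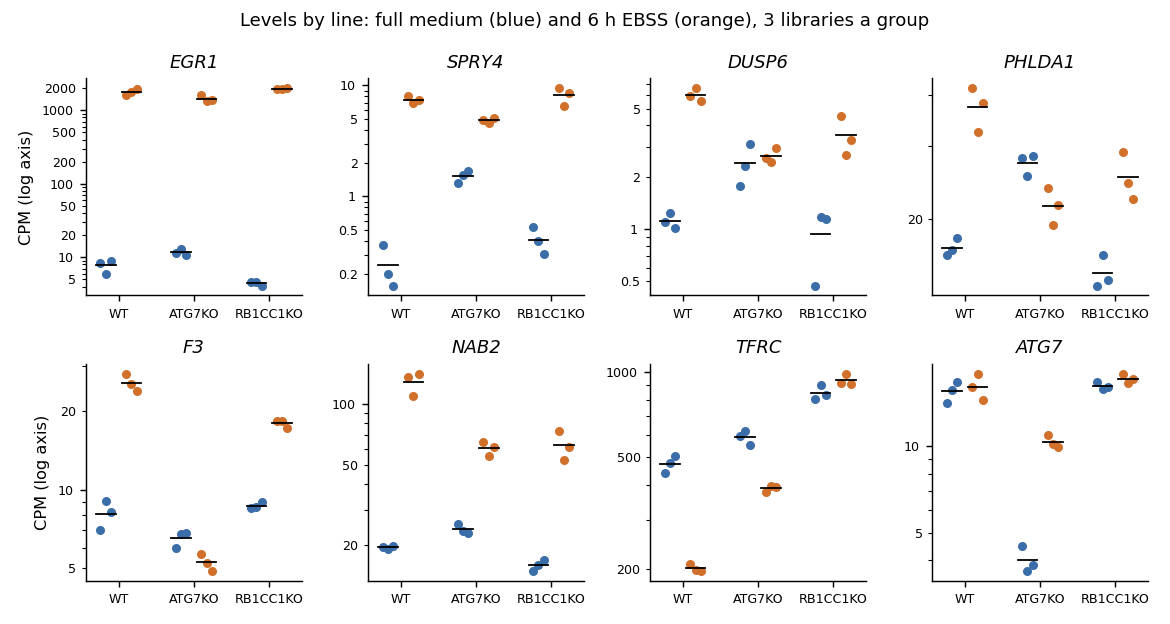
Levels of 8 genes in all 18 libraries, in TMM-scaled CPM on log axes that differ between panels, for WT, ATG7KO and RB1CC1KO in full medium (blue) and after 6 h of EBSS (orange), with short lines at the means. For SPRY4 and DUSP6 the fed ATG7KO libraries lie above those of both other lines, and for ATG7 below them.

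Against RB1CC1KO, the difference of responses was called in 498 genes (3.28%). The response was larger or less negative in ATG7KO in 349 (2.3%) and smaller or more negative in 149 (0.982%). The count was 295 without ATG7KO EBSS replicate 2 and 309 without RB1CC1KO EBSS replicate 1. The excess of higher values was not stable. It turned to 155 higher and 198 lower without ATG7KO EBSS replicate 1 and to 148 and 161 without RB1CC1KO EBSS replicate 1. It shrank to 152 and 143 without ATG7KO EBSS replicate 2, to 181 and 168 or 182 and 155 without RB1CC1KO full medium replicate 2 or 3, and to 220 and 193 with only these lines in the fit. The RNA of the targeted gene gives no check of the RB1CC1KO label here, since whole-gene counts need not show a small edit. WT and RB1CC1KO were each set against the same ATG7KO libraries, so the 2 comparisons are not independent. Of the markers, DDIT4 rose less in ATG7KO (difference, ATG7KO minus RB1CC1KO, -0.94 ± 0.15, adjusted p = 1.11e-04). STC2 differed by -0.30 ± 0.09, a call lost in 8 of the 12 fits that each left out 1 library, and SLC40A1 did not differ by a called amount. The difference was -1.83 ± 0.16 for EGR1 (adjusted p = 2.63e-08), -2.63 ± 0.36 for SPRY4, -2.31 ± 0.45 for PTGS2, -2.11 ± 0.39 for THBS1, a matrix glycoprotein, and -1.91 ± 0.32 for FOS. THBS1 was low in RB1CC1KO, at 0.472, 0.619 and 1.03 CPM in fed and 0.652, 1.52 and 1.2 CPM in starved libraries. In ATG7KO it stood at 15.9, 14.65 and 14 CPM in fed and 5.82, 5.57 and 5.52 CPM in starved libraries. HCLS1, a cortactin-like protein of blood cells, differed by -1.78 ± 0.30, but it was near 0 in RB1CC1KO, with 0.413, 0.338 and 0.364 CPM in fed and 1.13, 1.35 and 0.914 CPM in starved libraries, against 49.8, 54.1 and 50 and 45.6, 46.2 and 47.5 CPM in ATG7KO. PTGS2 gave -2.95 without ATG7KO EBSS replicate 1. FOS stood at 1.18, 0.901 and 1.15 CPM in fed and 486, 472 and 473 CPM in starved RB1CC1KO libraries. DUSP6 differed by -1.77 ± 0.38, F3 by -1.33 ± 0.18, PHLDA1 by -1.11 ± 0.15 and NAB2 by -0.64 ± 0.15. Of the 39 immediate early and feedback genes 21 were called lower and 1 higher.

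Some genes had a larger or less negative response in ATG7KO than in RB1CC1KO. Among them were WNK4 (difference 1.93 ± 0.41), PARS2 (1.62 ± 0.31) and BLOC1S3, a subunit of an organelle biogenesis complex (1.56 ± 0.24). WNK4 stood at 0.167, 0.324 and 0.811 CPM in fed ATG7KO libraries, near the floor, against 2.54, 1.52 and 2.43 CPM in RB1CC1KO. After EBSS it stood at 8.66, 7.95 and 11.9 CPM in ATG7KO and 12.4, 11.5 and 12.2 CPM in RB1CC1KO. PARS2 and BLOC1S3 fell in both lines, and further in RB1CC1KO. Without ATG7KO full medium replicate 3 the difference of WNK4 was 2.68, and PARS2 did not pass without EBSS replicate 2 of ATG7KO (1.2, adjusted p = 0.0794). FOXF1, ADORA1 and SYT1 were also among the 6 largest, but their calls were lost in 8 of the 12 fits that each left out 1 library. TFRC was the other way round from the comparison with WT. It stood at 806, 901 and 831 CPM in fed and 918, 990.2 and 913 CPM in starved RB1CC1KO libraries, a change of 0.15 ± 0.06, and the difference was -0.75 ± 0.09 (adjusted p = 6.51e-07). The 3 lines thus gave 3 responses of the transferrin receptor, of which that of ATG7KO lay in the middle. CDKN1A differed by -1.12 ± 0.11, BCL6 by -1.4 ± 0.14, ID1 by -1.23 ± 0.15 and ID3 by -1.19 ± 0.20. CDKN1A fell in ATG7KO but went from 103, 111 and 101 to 135, 133 and 133 CPM in RB1CC1KO. BCL6 stood at 12.5, 13.95 and 14.8 CPM in fed ATG7KO libraries, above 5.48, 5.69 and 5.765 CPM in fed RB1CC1KO libraries. After EBSS it reached 45.7, 45.2 and 45.2 CPM in ATG7KO and 45.3, 51.2 and 51.7 CPM in RB1CC1KO. ID1 fell in both lines, and further in ATG7KO.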

How the data were processed

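Polyadenylated RNA of HAP1 lines was measured in 18 libraries. The deposited values are raw counts: per library, the authors gave a table of reads in each of 63677 Ensembl identifiers, unnormalized, and 5 summary lines that were left out here. STAR 2.4.2a, HTSeq 0.6.1p1, Picard, DESeq2, edgeR and the build GRCh37 (hg19) stand in the submitters' processing notes, which do not say what each did. The strand setting is not given in the sources used here, so overlapping genes on opposite strands may share reads, as may near-identical copies.

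Names, exon numbers and gene types came from GENCODE 29 (GRCh38), which matched 52526 identifiers, and promoters from RefSeq (GRCh38.p14, first listed start per symbol). No position was transferred between builds. Of 919 entries in 33 gene lists 907 were matched.

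The counts were analysed with edgeR 4.0.16 in R 4.3.3, with limma 3.58.1 and DESeq2 1.42.0 as alternatives. The quasi-likelihood model had 6 group means, TMM scaling and robust spread, and was fitted to all 18 libraries over the 15179 genes kept by filterByExpr. Genes with a Benjamini-Hochberg adjusted p below 0.05 over all of them were called. Standard errors were derived from the test, as the absolute log2 change over the square root of F. A difference of responses is fitted on its own and can deviate slightly from the subtraction of both. CPM values are TMM-scaled. The common biological coefficient of variation was 6.72%. The model was also run on simulated counts in which few genes changed, in both directions. That run does not test the scaling under a response as broad as this one.

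Groups and replicate numbers came from the labels. The deviations of same-numbered fed and starved libraries correlated at 0.014, -0.13 and 0.18 in ATG7KO, -0.13, 0.42 and -0.13 in WT and 0.14, 0.56 and -0.057 in RB1CC1KO. They were not all above 0.1, so the numbers were not taken as pairs. Replicates differed by more than sampling noise (chi-square per degree of freedom 2.4 to 7.45 in ATG7KO), so none looked like the same library sequenced again. Separate preparations from 1 RNA sample or dish cannot be told apart from independent cultures in this way.

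The members, markers, lists, tests and naming rule were chosen with earlier results of these data known. The rule took ATG7, the 4 markers and, in each direction, the 14 protein-coding genes of largest change that were called, did not overlap between groups and averaged at least 1 on the log2 CPM scale. For differences it took the 8 (against WT) or 6 (against RB1CC1KO) largest in each direction, and from each list its core members and the 4 with the smallest p. Genes outside it, such as members named without an error, were named after their values were seen. Some genes that the rule names are not reported here.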

Additional observations from a re-analysis of the deposited data

Results flagged for a closer look

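A test of the difference between the responses of 2 lines singled out genes described above, each value being the log2 response of ATG7KO minus that of the other line, with edgeR's adjusted p below 0.05. Against WT the response was more positive in ATG7KO for ADORA1 (2.17), PLXNB3 (1.38), ATG7 (1.33), GPC6 (1.16), FRMD4B (1.08), STX18 (0.92), RPS6KL1 (0.86), DAB2 (0.83), JUN (0.82) and TFRC (0.63). It was less positive or more negative for SPRY4 (-3.28), DUSP6 (-2.28), PTGS2 (-2.22), F3 (-1.94), TNFRSF12A (-1.70), TAL1 (-1.68), PHLDA1 (-1.47), RGS2 (-1.44), NAB2 (-1.39), KLF10 (-0.95), EGR1 (-0.94), SPRY2 (-0.92), CHAC1 (-0.84) and MCL1 (-0.41).

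Against RB1CC1KO the response was more positive for FOXF1 (2.06), WNK4 (1.93), PARS2 (1.62), BLOC1S3 (1.56), ADORA1 (1.51), SYT1 (1.45) and ATG7 (1.29). It was less positive or more negative for SPRY4 (-2.63), PTGS2 (-2.31), THBS1 (-2.11), FOS (-1.91), EGR1 (-1.83), HCLS1 (-1.78), DUSP6 (-1.77), BCL6 (-1.40), F3 (-1.33), ID1 (-1.23), ID3 (-1.19), CDKN1A (-1.12), PHLDA1 (-1.11), DDIT4 (-0.94), TFRC (-0.75), NAB2 (-0.64) and STC2 (-0.30).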

How the results depend on the processing

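For the EBSS response of ATG7KO, the number of called genes stayed within 1.5 times 9554 under each alternative and was 8729 to 9200 when 1 library was left out. The number with a called difference between ATG7KO and WT was 281 without a filter on low counts, 293 with a replicate block, 637 with limma voom and quality weights, and 71 to 275 when 1 library was left out, against 160. Against RB1CC1KO it was 295 to 468 when 1 library was left out, against 498. The cause of these shifts was not tested. A replicate block gave 4985 genes higher and 4685 lower in ATG7KO.

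Of 201 response values of named genes, 189 kept direction and call under all 13 alternatives. Upper-quartile scaling turned DUSP6 (-0.045), FTH1 (-0.14), FTL (-0.045) and TNFRSF12A (-0.027) negative. It also moved LAMP1 and RRN3 out of the called genes and FBL (-0.23), STX18 (-0.25), F3 (-0.44) and FTH1 into them. FTL was called higher with limma voom and quality weights (0.13, adjusted p = 0.0479 by limma's test). With 1 library left out, DUSP6 ranged from -0.059 to 0.33, FTH1 from -0.097 to 0.053, FTL from -0.010 to 0.14, TNFRSF12A from -0.0049 to 0.22 and the difference of DDIT4 from WT from -0.21 to 0.023. Of 27 named differences from WT 16 kept direction and call under all 19 alternatives, as did 19 of 24 from RB1CC1KO.

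Medians changed sign with upper-quartile scaling for the mTORC1 (-0.094), lysosome (-0.0068), iron (-0.14) and ribosomal protein (-0.10) lists. With 1 library left out they ranged from -0.015 to 0.099 for mTORC1, from -0.079 to 0.053 for iron and from -0.027 to 0.075 for ribosomal proteins. Depth limits low genes most in EBSS replicate 3, the shallow library.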
